A study of Homo sapiens with 9 samples.

Results

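The snoRNA host genes measured here were the rows of the count table whose gene name starts with SNHG (small nucleolar RNA host gene), together with GAS5, ZFAS1, DANCR and EPB41L4A-AS1. The rule used names only, but it was set with earlier results of these data known. It found 29 of the 58735 genes in the table, under 28 names because SNHG28 stands on 2 rows. MIA PaCa-2, an established human pancreatic cancer cell line, was treated for 24-h with 0.1% DMSO as the vehicle, with compound 1, an inhibitor of the kinases TBK1 and IKKε, at 1 μM, or with the ERK1/2 inhibitor SCH772984 at 1 μM. Each condition has 3 RNA-seq libraries of cells labelled wild type, and nothing in the labels says that the 3 came from separate cultures, so p-values measure only the spread between these libraries. The authors deposited the number of reads on each gene. Values below are CPM (counts scaled to a common library total) with TMM factors, and changes are log2 fold changes from edgeR's quasi-likelihood test with standard errors (SE) and Benjamini-Hochberg adjusted p-values over all genes tested. A gene was called at an adjusted p under 0.05.

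Small nucleolar RNAs (snoRNAs) guide the chemical modification and the cutting of ribosomal RNA. In human cells most of them are cut out of the introns of longer transcripts, so each host gene yields a spliced RNA from its exons and snoRNAs from its introns. Box C/D snoRNAs guide 2′-O-methylation, box H/ACA snoRNAs guide pseudouridylation, and scaRNAs do the same for spliceosomal RNAs in Cajal bodies. Many spliced host RNAs code for no stable protein, are short-lived because nonsense-mediated decay removes them, and begin with a run of pyrimidines like that of ribosomal protein mRNAs. A gene count table of this kind measures the spliced host RNA and not the snoRNAs.

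By the snoRNA names inside their spans, 9 of the 29 host rows held box C/D snoRNAs, 10 box H/ACA snoRNAs, 3 both kinds (GAS5, SNHG12 and SNHG25), 4 scaRNAs, and 3 no named snoRNA. The sequences of 6 of these snoRNAs, with the genes that carry them, show what the host genes encode and why they are grouped by box. They are from GENCODE 29 on GRCh38, 5′ to 3′ in DNA letters. Capitals mark TGATGA (the C box) near the start and CTGA (the D box) near the end of the C/D snoRNAs, and the ACA before the end of the H/ACA snoRNA. SNORD26 has its D box marked but has no TGATGA near its start.
SNORD25 in SNHG1, chr11:62855564-62855632, minus strand: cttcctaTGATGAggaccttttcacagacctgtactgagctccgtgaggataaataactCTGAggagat
SNORD26 in SNHG1, chr11:62855292-62855366, minus strand: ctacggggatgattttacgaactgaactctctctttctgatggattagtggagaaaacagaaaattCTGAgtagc
SNORD27 in SNHG1, chr11:62855012-62855083, minus strand: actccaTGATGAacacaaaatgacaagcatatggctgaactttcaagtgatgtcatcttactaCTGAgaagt
SNORD50B in SNHG5, chr6:85677589-85677658, minus strand: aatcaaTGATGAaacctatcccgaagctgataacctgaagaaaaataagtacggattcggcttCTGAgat
SNORD60 in SNHG19, chr16:2155023-2155105, minus strand: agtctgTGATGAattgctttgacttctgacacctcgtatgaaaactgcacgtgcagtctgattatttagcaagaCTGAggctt
SNORA73B in SNHG3, chr1:28508559-28508762, plus strand: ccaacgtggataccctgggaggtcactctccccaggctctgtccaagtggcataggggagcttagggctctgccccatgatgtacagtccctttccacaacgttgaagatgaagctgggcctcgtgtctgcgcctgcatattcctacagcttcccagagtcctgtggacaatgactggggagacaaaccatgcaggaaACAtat
Of the 102 C/D snoRNA rows inside host genes, 84 carried both boxes within 15 bases of the ends, and 21 of the 23 H/ACA rows had ACA followed by at most 5 bases.

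The starts of the host genes were compared for the pyrimidine run. RefSeq windows of 300 bases (GRCh38.p14, 250 before and 50 from the annotated start) were on hand for 24 of the 28 names. RefSeq's start is not always that of the gene counted here. The SNHG14 window, for example, is chr15:24823358-24823657, and the counted SNHG14 begins at 24978583. The counts below are thus of RefSeq starts. In 6 of the 24 (25.0%) the annotated first base was a C followed by at least 4 more pyrimidines, against 4.07% of all 35114 windows. These were SNHG12, SNHG4, SNHG5, SNHG19, ZFAS1 and SNHG18, and this rule was added after the values had been seen. For the 5 of them that were tested, and for SNHG1 beside them, the 20 bases before the start and the 40 bases from it are given with the pyrimidine run in capitals.
SNHG12, chr1:28581834-28581893, minus strand: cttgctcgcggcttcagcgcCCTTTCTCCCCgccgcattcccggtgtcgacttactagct
SNHG4, chr5:139274081-139274140, plus strand: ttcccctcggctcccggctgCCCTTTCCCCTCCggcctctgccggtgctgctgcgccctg
SNHG5, chr6:85678694-85678753, minus strand: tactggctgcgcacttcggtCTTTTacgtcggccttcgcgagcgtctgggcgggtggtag
SNHG19, chr16:2155319-2155378, minus strand: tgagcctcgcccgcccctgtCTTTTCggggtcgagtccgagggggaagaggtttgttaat
ZFAS1, chr20:49278622-49278681, plus strand: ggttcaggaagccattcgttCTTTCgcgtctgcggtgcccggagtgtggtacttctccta
SNHG1, chr11:62855846-62855905, minus strand: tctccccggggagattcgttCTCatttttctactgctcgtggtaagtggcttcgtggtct
Other short motifs were each in at most 4 of the 24 windows, and their shares were not tested against those of all windows. On either strand, the E-box CACGTG was in 1 of the 24 windows (4.17%, against 7.26% of all windows), the ETS motif CCGGAAG in 2 (8.33% against 10.3%), TATAAA in 4 (16.7% against 11.5%), and the palindromic NRF1 motif and the CRE TGACGTCA in 0 (against 1.24% and 1.85%). A match in these letters is a description of the window and not a bound site.

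The SCH772984 libraries held 11056977 to 13887859 counts and the other 6 libraries 9464432 to 10286223, so depth differed with the group. KRT8, KRT18, KRT19 and VIM were well expressed, EPCAM had 0 counts, and KRT7 and CDH1 had at most 5. PTPRC, PRSS1, CPA1, INS and GCG, which mark leukocytes, acinar cells and islet cells, had 0 counts and PECAM1 at most 1, while COL1A2, listed as a fibroblast marker, was expressed in this line. KRT8, KRT18 and VIM fell with SCH772984, and COL1A1 and COL1A2 rose. Of 15 tested genes that follow MAPK signaling, 14 fell and 1 rose with SCH772984 (median log2 fold change -3.51), where 35.5% of all genes fell and 37.2% rose. With compound 1 edgeR called 0 of the 15 (4 lower and 2 higher at an unadjusted p under 0.05). Over all genes it called 0.374% lower and 0.49% higher with compound 1 (7.69% and 7.35% unadjusted). SPRY4, a feedback inhibitor of the pathway, was at 233 CPM with DMSO and at 1.99 CPM with SCH772984. Compound 1 replicate 1 stood apart from its replicates, with a chi-square statistic over genes, divided by its degrees of freedom, of 10.1 and 7.61 against 2.66 between the other two. Mitochondrial transcripts took 6.23% to 7.52% of the counts with SCH772984 and 3.33% to 3.98% in the other 6 libraries, and more genes had a count with SCH772984 (21381 to 22981) and with compound 1 (19811 to 20356) than with DMSO (18808 to 19224). The part of these differences in the results below was not tested.

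Together the host genes took a small share of the RNA, and that share differed between the conditions. Their summed level was 1223, 1207 and 1321 CPM in the DMSO libraries, 1515, 1465 and 1442 CPM with compound 1, and 853, 916 and 934 CPM with SCH772984. Every compound 1 library lay above, and every SCH772984 library below, all DMSO libraries. The 5 most abundant hosts held 55.6% to 62.5% of the sum in a library. In bulk RNA, a lower level in every cell and fewer cells that express the gene cannot be told apart.

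**Figure D1:**
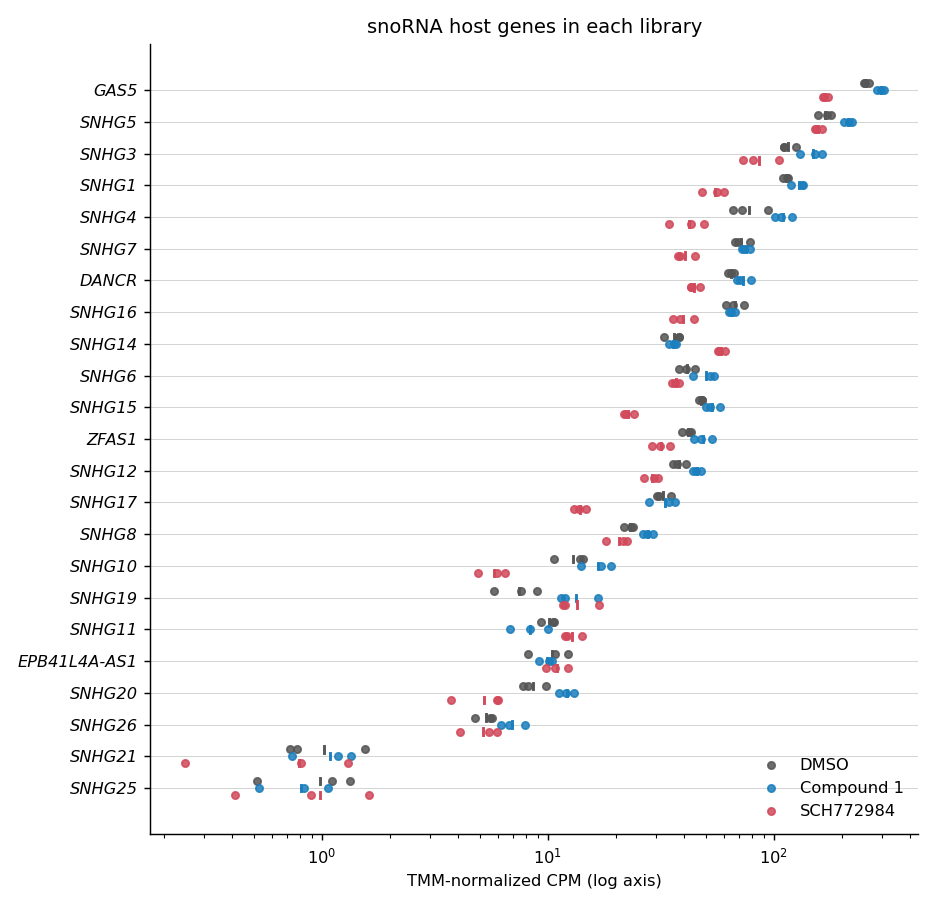
TMM-normalized CPM (log axis) of the 23 tested snoRNA host genes in each library, ordered by mean level, with small bars at the group means (n = 3 libraries). GAS5 and SNHG5 were the most abundant, and for most genes the SCH772984 libraries sit to the left of DMSO and the compound 1 libraries level with DMSO or to its right.

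Levels of different genes were compared per length, as CPM per kilobase of annotated exon. With DMSO, GAS5 was highest at 70.2 ± 2.06 CPM per kilobase (SD, n = 3), followed by SNHG5 at 60.2 ± 4.06, SNHG6 at 33.0 ± 2.70 and SNHG1 at 30.1 ± 0.852. SNHG6 and SNHG1 were within their spread of each other, as were DANCR (28.3 ± 0.832) and SNHG3 (28.3 ± 2.16). SNHG8 reached 24.9 ± 1.12 and SNHG19, whose exons span 342 bases, 21.8 ± 4.68 CPM per kilobase. SNHG14 was at 0.833 ± 0.0716 over 43324 annotated exon bases. Compound 1 left GAS5 (81.7 ± 2.80) and SNHG5 (76.2 ± 3.03) in this order, and with SCH772984 SNHG5 (55.8 ± 2.20) stood above GAS5 (46.4 ± 1.39 CPM per kilobase).

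Of the 29 rows, 23 had enough counts for a test in at least 1 comparison and 21 in all 3. The other 6 were SNHG9, SNHG22, SNHG27, SNHG18 and both SNHG28 rows. Of these, 3 (SNHG18, SNHG27 and a SNHG28 row) had no count in any library, which allows up to 3 counts in each. The other SNHG28 row had 0 counts in the 6 DMSO and compound 1 libraries and 3, 4 and 4 counts with SCH772984, next to the floor of 3 counts, so no fold is given. SNHG9 lay between 0.490 and 1.07 CPM and SNHG22 at or below 0.408 CPM, with overlapping groups. Because the filter keeps genes by their level, the counts below are of tested hosts and not of all hosts.

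The ERK inhibitor was compared with DMSO to ask which transcripts depend on ERK1/2 activity. Most abundant snoRNA host RNAs were lower after 24-h of SCH772984. Among 22 tested hosts, 13 fell and 3 rose, while 35.5% of all 13834 genes tested fell and 37.2% rose. In the same 13 hosts all 3 SCH772984 libraries lay below all 3 DMSO libraries (59.1% of the tested hosts, against 37.4% of all genes), and in the same 3 all lay above (against 36.8%). The median log2 fold change was -0.39 for the hosts and 0.03 for all genes. Scaling by library size alone raised the median of all genes to 0.20 and gave -0.21 for the hosts.

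The largest fall among the tested hosts was that of SNHG17. SNHG17 (ENSG00000196756, chr20:38420588-38435353), which carries the SNORA71 genes, was at 30.2, 35.1 and 31.1 CPM with DMSO and at 13.1, 14.8 and 13.8 CPM with SCH772984, a log2 fold change of -1.19 (SE 0.12, adjusted p = 1.35e-12). SNHG15, host of SNORA9, went from 46.5, 48.2 and 48.1 CPM to 21.8, 22.2 and 23.9 CPM, a change of -1.05 (SE 0.09, adjusted p = 7.76e-14). In each, every SCH772984 library lay well below the lowest DMSO library. SNHG4, an H/ACA host, had 72.5, 66.0 and 94.5 CPM with DMSO and 34.4, 43.0 and 48.9 CPM with SCH772984 (-0.86, SE 0.17, adjusted p = 0.00265). SNHG7, host of SNORA17A and SNORA17B, had 67.4, 69.3 and 78.0 CPM with DMSO and 37.8, 38.2 and 45.0 CPM with SCH772984 (-0.80, SE 0.08, adjusted p = 1.26e-11). The groups did not overlap for either gene, and SNHG4 was the more variable of the pair.

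DANCR, an RNA known for holding progenitor cells undifferentiated and host of SNORA26, was at 64.7, 62.8 and 66.6 CPM with DMSO and at 43.2, 43.1 and 47.3 CPM with SCH772984 (-0.52, SE 0.08, adjusted p = 1.96e-07), and library size alone gave -0.34 (adjusted p = 0.000211). SNHG3, which carries SNORA73A and SNORA73B, the snoRNAs used in cutting the ribosomal RNA precursor, was at 110.4, 110.5 and 125.7 CPM with DMSO and at 72.9, 80.6 and 105.2 CPM with SCH772984 (-0.40, SE 0.11, adjusted p = 0.00411). Its SCH772984 replicate 3 came close to the DMSO libraries without reaching them. The SNHG3 call was lost after removal of trends with gene length and GC content (-0.32, adjusted p = 0.0813) and with library size alone (-0.22, adjusted p = 0.117), which also took the calls of ZFAS1 (-0.20, adjusted p = 0.0548) and SNHG12 (-0.20, adjusted p = 0.0636). SNHG10, host of SCARNA13, fell by 1.13 (SE 0.17, adjusted p = 1.15e-07) and SNHG20, host of SCARNA16, fell by 0.68 on the log2 scale (SE 0.20, adjusted p = 0.00197).

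Of the C/D hosts, SNHG1, SNHG16 and ZFAS1 fell. SNHG1 (ENSG00000255717, chr11:62851988-62855914), a host gene with 7 snoRNA genes in its span in this annotation, was at 115, 109 and 115 CPM with DMSO and at 48.1, 59.9 and 56.1 CPM with SCH772984, a log2 fold change of -1.03 (SE 0.08, adjusted p = 6.78e-16). SNHG16, which carries SNORD1A, SNORD1B and SNORD1C, was at 61.6, 66.1 and 73.5 CPM with DMSO and at 38.5, 44.4 and 35.7 CPM with SCH772984 (-0.74, SE 0.09, adjusted p = 8.35e-10). ZFAS1, host of the SNORD12 genes, was at 39.0, 43.2 and 42.3 CPM with DMSO and at 31.2, 34.6 and 28.98 CPM with SCH772984 (-0.37, SE 0.09, adjusted p = 0.000476, and not called at -0.20 with library size alone). For all 3 the groups were apart, by the least for ZFAS1.

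The abundant C/D hosts SNHG5 and SNHG6 did not pass the test. SNHG5 (ENSG00000203875, chr6:85660950-85678748), host of SNORD50A and SNORD50B, was at 171, 156 and 179 CPM with DMSO and at 154, 164 and 152 CPM with SCH772984, so the groups overlapped (-0.09, SE 0.07, adjusted p = 0.245). SNHG6, host of SNORD87, was at 37.9, 41.0 and 44.6 CPM with DMSO and at 38.1, 35.5 and 36.5 CPM with SCH772984 (-0.14, SE 0.09, adjusted p = 0.146). With library size alone both values turned to the other side of 0 (0.09 and 0.03).

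Both kinds of snoRNA are found in GAS5, a growth arrest-associated RNA known as a decoy for the glucocorticoid receptor. The table's annotation holds 0 snoRNA genes within GAS5 (ENSG00000234741, chr1:173863900-173868882), and RefSeq names 11 in its span. GAS5 was at 249, 252 and 264 CPM with DMSO and at 164, 174 and 167 CPM with SCH772984, a log2 fold change of -0.58 (SE 0.06, adjusted p = 3.75e-11). SNHG12, with SNORD99 and 3 H/ACA snoRNAs, changed by -0.37 (SE 0.10, adjusted p = 0.000634, and not called at -0.20 with library size alone). GAS5 thus fell to 0.670 of its DMSO level, with no overlap between libraries.

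In the other direction, SNHG14, SNHG19 and SNHG11 rose with SCH772984. SNHG14 (ENSG00000224078, chr15:24978583-25419462), the long transcript of the imprinted Prader-Willi region that carries the SNORD115 and SNORD116 clusters and 84 snoRNA genes in all, was at 37.9, 32.5 and 37.9 CPM with DMSO and at 57.2, 60.9 and 56.3 CPM with SCH772984 (0.71, SE 0.09, adjusted p = 9.61e-10). Removal of the length and GC trends, chosen after seeing the data, brought this rise to 0.30 (SE 0.08, adjusted p = 0.00107). SNHG19 (ENSG00000260260, chr16:2154797-2155358), host of SNORD60, was at 8.98, 5.79 and 7.62 CPM with DMSO and at 11.7, 11.9 and 16.8 CPM with SCH772984 (0.87, SE 0.17, adjusted p = 1.65e-05). SNHG11, host of SNORA60 and SNORA71E, changed by 0.35 (SE 0.15, adjusted p = 0.0337), and this call was lost without any of the 3 DMSO libraries or without SCH772984 replicate 3 (0.27 to 0.36), and by DESeq2 (adjusted p = 0.074), without a filter (0.106) and with all 9 libraries in one fit (0.0503), while library size alone gave 0.52 (adjusted p = 0.00189). By snoRNA class, 6 of 9 H/ACA hosts fell and 1 rose, 3 of 8 C/D hosts fell and 2 rose, 2 of 3 with both kinds fell, and both tested scaRNA hosts fell. Over all genes 35.5% fell and 37.2% rose, so the shares of C/D hosts were near those of all genes, and the classes overlapped in size and were not tested against each other. SNHG8, EPB41L4A-AS1, SNHG26 and SNHG25 were not called, with log2 fold changes of -0.14 to 0.10.

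**Figure D2:**
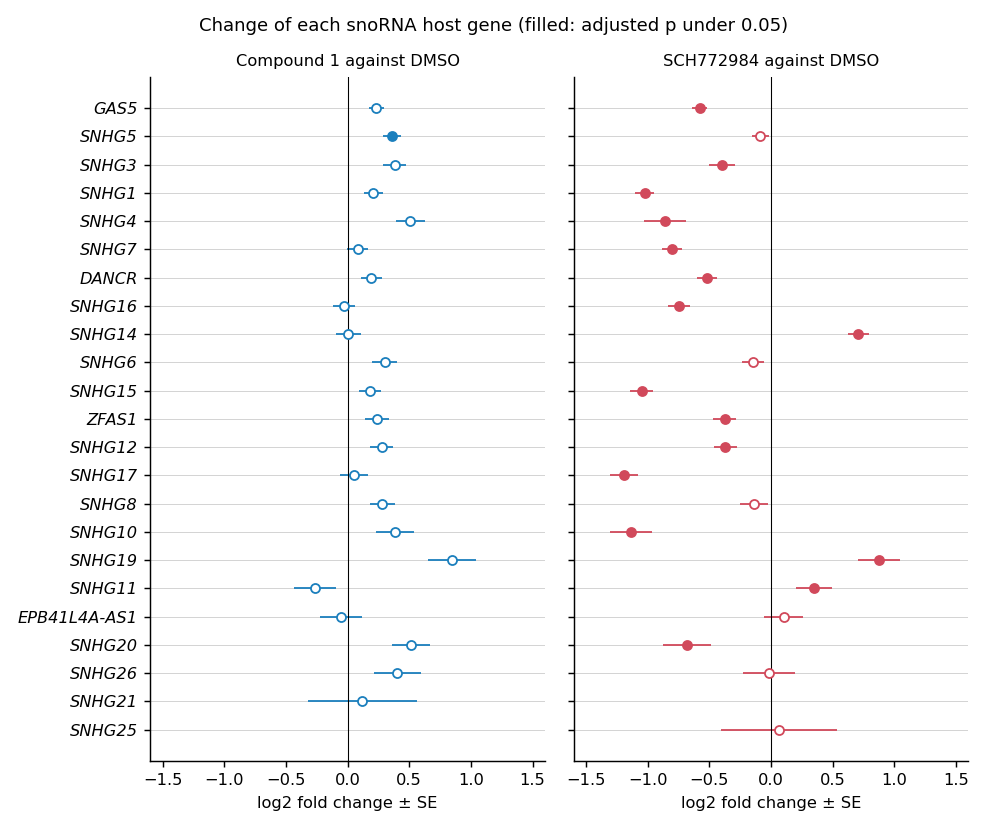
Log2 fold change of each tested snoRNA host gene against DMSO, with edgeR's SE, for compound 1 (left) and SCH772984 (right), in the order of mean level; filled points have an adjusted p under 0.05. With SCH772984 13 filled points lie below 0 and 3 above, and with compound 1 the filled point is SNHG5 and 19 of 22 points lie above 0.

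Compound 1 was compared with DMSO to ask which transcripts respond to TBK1 and IKKε inhibition, and changes were small. SNHG5 was the host gene called higher. It was at 171, 156 and 179 CPM with DMSO and at 221, 204 and 216 CPM with compound 1, a log2 fold change of 0.36 (SE 0.07, adjusted p = 0.0365), with no overlap between the groups. That is 1 of 22 tested hosts (4.55%), and 0.49% of the 12849 genes tested were called higher. None of the 22 was called lower by edgeR (0 at an unadjusted p under 0.05 as well, and 0 by DESeq2), against 0.374% of all genes at the adjusted and 7.69% at the unadjusted threshold. Leaving out any DMSO library, or compound 1 replicate 3, cost SNHG5 its call (adjusted p = 0.106 to 0.311, log2 fold changes 0.30 to 0.40).

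Without adjustment, 13 of the 22 tested hosts had a p under 0.05 and were higher (59.1%, against 7.35% of all genes). In 13 of 22 all 3 compound 1 libraries lay above all 3 DMSO libraries (against 9.37% of all genes), and in 0 did they lie below (against 12.1%). The log2 fold change was above 0 for 19 of 22 hosts (50.5% of all genes), with a median of 0.24 against 0.002 for all genes. The count of hosts called higher depended on compound 1 replicate 1, being 6 without it (where 3.46% of all genes were called higher).

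**Figure D3:**
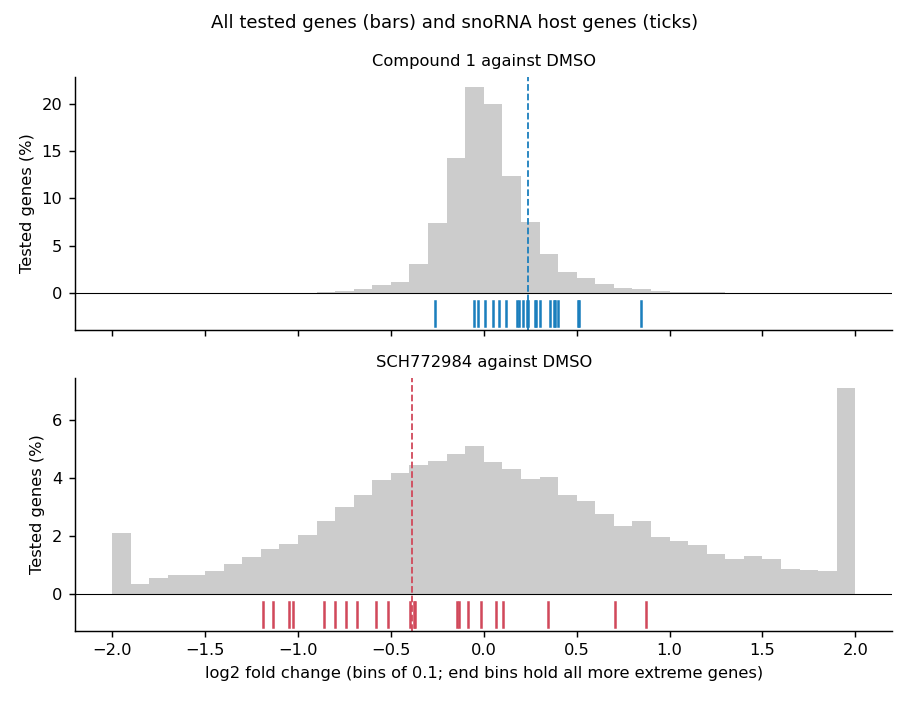
Distribution of log2 fold changes over all tested genes (bars, percent of tested genes per bin of 0.1) with each snoRNA host gene as a tick and the hosts' median as a dashed line, for compound 1 (top) and SCH772984 (bottom) against DMSO. The hosts' median is at 0.24 with compound 1 and at -0.39 with SCH772984, where all genes spread far more widely.

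Most of the abundant hosts were above DMSO without a call. GAS5 was at 298, 306 and 286 CPM with compound 1, above all DMSO libraries (0.23, SE 0.06, adjusted p = 0.0964). SNHG3 was at 164, 152 and 130.1 CPM (0.38, SE 0.09, adjusted p = 0.0652), its lowest library just over the highest DMSO library. SNHG4 was at 101, 119.8 and 107 CPM (0.51, SE 0.12, adjusted p = 0.0524), also without overlap. None of these 3 hosts was called, nor was SNHG19, at 16.6, 11.5 and 11.9 CPM (0.85, SE 0.19, adjusted p = 0.0524).

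SNHG1 was at 134, 134 and 119.5 CPM with compound 1 (0.21, SE 0.08, adjusted p = 0.204), DANCR at 79.1, 68.8 and 71.1 CPM (0.19, SE 0.08, adjusted p = 0.299) and SNHG15 at 57.6, 50.1 and 52.1 CPM (0.18, SE 0.09, adjusted p = 0.358). ZFAS1 was at 44.5, 47.6 and 53.0 CPM (0.24, SE 0.10, adjusted p = 0.247). In these hosts every compound 1 library exceeded every DMSO library, although none was called. SNHG6 was at 54.2, 44.0 and 52.0 CPM, and its lowest library overlapped DMSO (0.30, SE 0.10, adjusted p = 0.18).

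For SNHG7, SNHG16 and SNHG14 the compound 1 and DMSO libraries overlapped. SNHG7 was at 78.7, 72.5 and 73.5 CPM with compound 1 (0.08, SE 0.09, adjusted p = 0.708), and 0.04 to 0.15 with each library left out in turn. SNHG16 was at 63.3, 67.0 and 64.7 CPM (-0.03, SE 0.09, adjusted p = 0.913) and SNHG14 at 34.4, 36.2 and 36.9 CPM (0.01, SE 0.10, adjusted p = 0.986). Leaving out DMSO replicate 3 gave 0.04 for SNHG16, and leaving out DMSO replicate 2 gave -0.07 for SNHG14, so neither had a direction. The remaining tested hosts ran from -0.26 (SNHG11, adjusted p = 0.516) to 0.51 (SNHG20, adjusted p = 0.131).

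The inhibitors were also compared with each other. This fit used no DMSO library. Of 23 tested hosts, 16 were lower with SCH772984 than with compound 1 and 2 were higher, while 32.6% and 33.7% of 13863 genes were. The median difference was -0.64 for the hosts and 0.03 for all genes. Libraries did not overlap for 17 hosts below (73.9%, against 34.6% of all genes) and 2 above (against 34.7%). SNHG10 differed most (-1.51, SE 0.17, adjusted p = 1.35e-07), followed by SNHG4 (-1.36, SE 0.11, adjusted p = 1.66e-09), SNHG17 (-1.23, SE 0.13, adjusted p = 5.85e-08), SNHG1 (-1.22, SE 0.10, adjusted p = 1.28e-09) and SNHG15 (-1.22, SE 0.11, adjusted p = 2.80e-09).

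SNHG20 (-1.19, SE 0.19), SNHG7 (-0.88, SE 0.10), GAS5 (-0.80, SE 0.08), SNHG3 (-0.77, SE 0.11), SNHG16 (-0.70, SE 0.11), DANCR (-0.70, SE 0.10), SNHG12 (-0.64, SE 0.10) and ZFAS1 (-0.60, SE 0.11) were also lower with SCH772984. SNHG5 (-0.43, SE 0.08, adjusted p = 0.000113), SNHG6 (-0.43, SE 0.11, adjusted p = 0.00113) and SNHG8 (-0.41, SE 0.12, adjusted p = 0.00522) were called here but not in SCH772984 against DMSO. SNHG14 (0.71, SE 0.10, adjusted p = 2.60e-06) and SNHG11 (0.62, SE 0.17, adjusted p = 0.0028) were higher with SCH772984. Removal of the length and GC trends brought SNHG14 to 0.21 (adjusted p = 0.057), and library size alone left SNHG8 at -0.27 (adjusted p = 0.0503). SNHG19 differed by 0.03 (SE 0.17, adjusted p = 0.875), having been above DMSO in every library of both inhibitors.

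Several hosts share a start region or exon bases with a protein-coding gene, and the strand setting of the counting is not given in the sources used here, so reads in shared bases cannot be assigned with certainty. SLC3A2, a subunit of amino acid transporters, starts 188 bases from SNHG1 on the other strand. It fell by 1.18 with SCH772984 (SE 0.06, adjusted p = 1.22e-21), as SNHG1 did, and was at -0.09 with compound 1 (SE 0.09, adjusted p = 0.687). ZBTB37, 800 bases from GAS5, fell by 0.44 (SE 0.18, adjusted p = 0.025). TRAF7, 340 bases from SNHG19, fell by 0.30 (SE 0.08, adjusted p = 0.000772) where SNHG19 rose, and ZNFX1, 248 bases from ZFAS1, was at 0.13 (SE 0.07, adjusted p = 0.112) where ZFAS1 fell.

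RCC1, the chromatin-bound exchange factor of the Ran GTPase, shares 242 exon bases with SNHG3 on the same strand, and it fell by 1.5004 with SCH772984 (SE 0.06, adjusted p = 9.33e-25). It was at -0.22 with compound 1 (SE 0.07, adjusted p = 0.129), where SNHG3 was at 0.38. SEC14L1 shares 460 exon bases with SNHG20 and was called lower with compound 1 (-0.48, SE 0.07, adjusted p = 0.00532), where SNHG20 was at 0.51. With SCH772984 SEC14L1 fell (-0.33, SE 0.07, adjusted p = 2.50e-05), as SNHG20 did. Across the opposite strand, FAM69B shares 1094 bases with SNHG7 and rose with SCH772984 (0.98, SE 0.12, adjusted p = 4.59e-10) where SNHG7 fell. SIL1 (118 bases) and TRNAU1AP (8 bases) rose by 0.44 and 0.80 where SNHG4 and SNHG12 fell, and GLRX5 (391 bases) fell by 0.71 together with SNHG10. UBE3A, the ubiquitin ligase gene that SNHG14 runs across, shares 198 exon bases with it and fell with SCH772984 (-0.46, SE 0.07, adjusted p = 4.83e-07) where SNHG14 rose. SNRPN, which shares 141 exon bases with SNHG14 on the same strand, rose as well (1.16, SE 0.33, adjusted p = 0.00196).

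**Figure D4:**
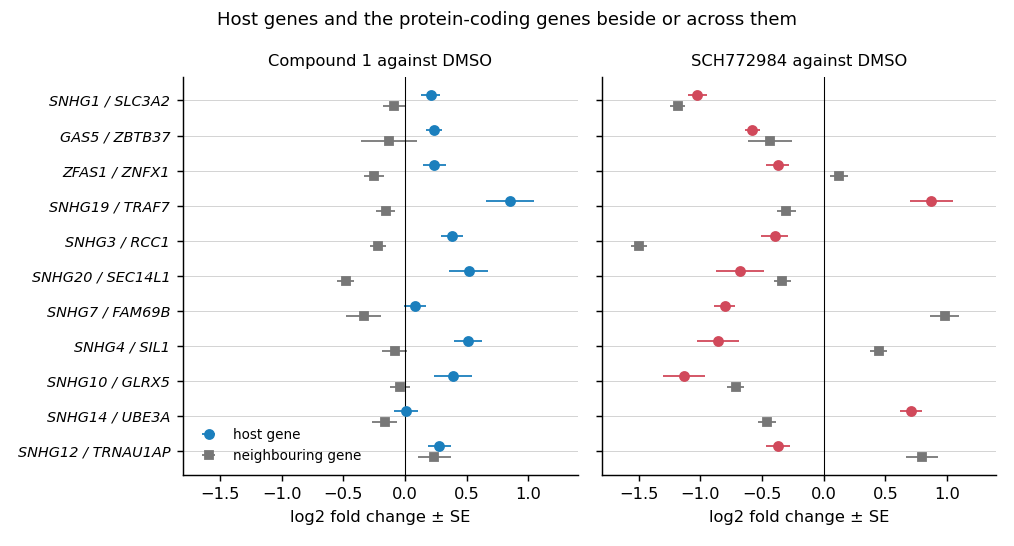
Log2 fold change against DMSO (± SE) of 11 host genes (circles) and of the protein-coding gene that starts beside each or shares exon bases with it (grey squares), for compound 1 (left) and SCH772984 (right). With SCH772984, SLC3A2 and RCC1 lie at -1.18 and -1.5004 and FAM69B at 0.98, so neighbours moved with some hosts and against others.

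The hosts were set beside lists of related genes. Of 50 protein-coding snoRNA hosts, many of them ribosomal protein and translation factor genes, 37 fell and 2 rose with SCH772984 (median -0.31), where 35.5% of all genes fell and 37.2% rose. DKC1 (the pseudouridine synthase, which hosts snoRNAs itself) was lowest at -1.96 (SE 0.07, adjusted p = 1.72e-28) and EIF4A2, a translation initiation helicase, highest at 0.24 (SE 0.07, adjusted p = 0.00209). With compound 1 edgeR called 0 of the 50 (4 lower and 5 higher at an unadjusted p under 0.05), with a median of 0.05, from -0.27 (CNOT1) to 0.28 (RPL39). Over all genes 0.374% were called lower and 0.49% higher (7.69% and 7.35% unadjusted), so the counts of these hosts were near the shares of all genes.

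The mRNAs of all 19 listed proteins that bind, assemble or process snoRNPs were called lower with SCH772984, against 35.5% of all genes. Their median was -1.16. TCOF1, a nucleolar factor that binds them, fell by 2.22 (SE 0.06, adjusted p = 4.46e-31) and ZNHIT3, an assembly factor, fell by 0.32 (SE 0.11, adjusted p = 0.00922). With compound 1, TCOF1 was called lower (-0.30, SE 0.06, adjusted p = 0.0376) and the list's median was -0.03. Nonsense-mediated decay factors were called lower for 11 of 16 and higher for 1 with SCH772984 (median -0.50, against 35.5% lower and 37.2% higher over all genes), from MAGOH (-1.31, SE 0.10, adjusted p = 2.03e-15) to SMG6 (0.31, SE 0.09, adjusted p = 0.00258). With compound 1, 0 of the 16 were called (3 lower and 0 higher at an unadjusted p under 0.05). Over all genes 0.374% were called lower and 0.49% higher with compound 1 (7.69% and 7.35% unadjusted), so 0 calls in so short a list tell little.

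Among long noncoding RNAs listed as hosting no snoRNA, 9 fell and 10 rose of 22 tested with SCH772984 (median 0.01), close to the 35.5% and 37.2% of all genes. CYTOR was lowest (-1.75, SE 0.15, adjusted p = 3.09e-14) and MALAT1, a nuclear-speckle RNA, highest (1.84, SE 0.22, adjusted p = 0.00126) among those of at least 5 CPM. Compound 1 raised 2 of 21 rows (against 0.49% of all genes), NEAT1 (0.70, SE 0.12, adjusted p = 0.0139), the scaffold of paraspeckles, and a row of LINC-PINT (ENSG00000231721, 1.00, SE 0.20, adjusted p = 0.0365), with a median of 0.20. Over all other long noncoding genes, 134 fell and 543 rose of 1143 with SCH772984 (median 0.63). With compound 1, 0 fell and 6 rose of 841 (19 lower and 73 higher at an unadjusted p under 0.05), with a median of 0.13 and 535 above 0. Over all genes 0.374% fell and 0.49% rose with compound 1 (7.69% and 7.35% unadjusted), and 50.5% were above 0, so the higher calls were near the shares of all genes. The median of the hosts was thus on the other side of 0 from other long noncoding genes with SCH772984 and on the same side with compound 1, and the difference was not tested.

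**Figure D5:**
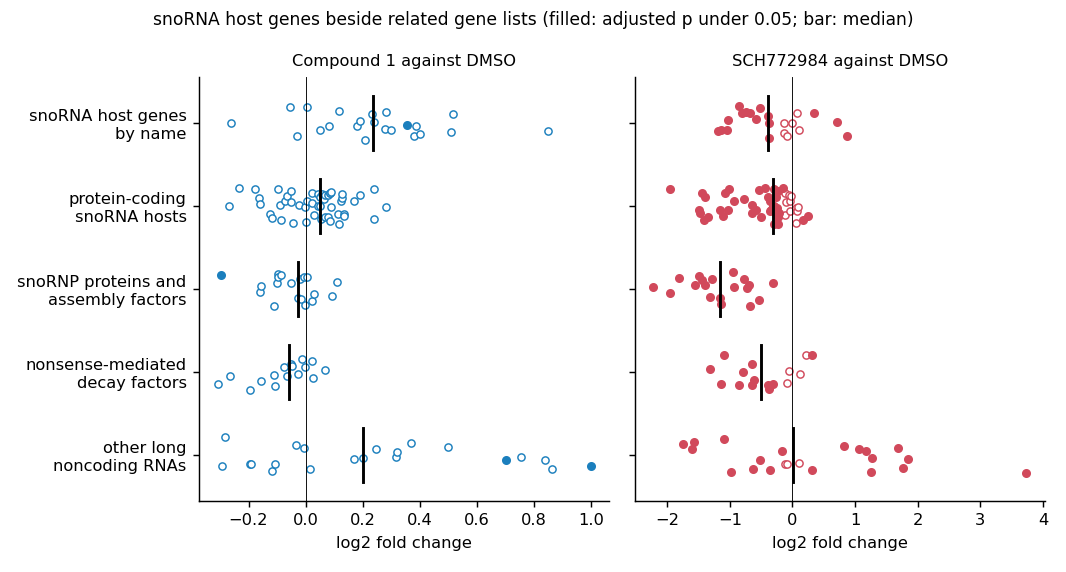
Log2 fold change against DMSO of every tested gene in 5 lists, for compound 1 (left) and SCH772984 (right, a wider scale), with vertical bars at the medians and filled points at an adjusted p under 0.05. With SCH772984 the medians are -0.39 for the hosts by name, -0.31 for protein-coding hosts, -1.16 for snoRNP factors, -0.50 for decay factors and 0.01 for other long noncoding RNAs.

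The snoRNAs themselves were hardly counted. Of 993 snoRNA and scaRNA genes in the table, 231 had a count in any library. Of the 137 that lie inside a host gene on its strand, 44 overlap the host's annotated exons and 0 of these had a count, while 31 of the 93 that lie clear of the exons did. These rows gave no measure of snoRNA levels, and a change in a host RNA was not compared with its snoRNAs.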

How the data were processed

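RNA-seq of MIA PaCa-2 cells gave 3 libraries per condition. The authors deposited raw read counts per gene, without normalization. The submitters' processing notes name HISAT2 2.0.5, featureCounts 1.5.0-p3 and hg38, and the strand setting is not given in the sources used here. All 58735 genes matched GENCODE 29 (Ensembl 94) in identifier, coordinates and exon length. Libraries were grouped by their labels. Each pair of conditions was fitted alone with edgeR 4.0.16 (robust quasi-likelihood test, R 4.3.3), TMM factors and filterByExpr (minimum count 10, total 15), over all genes. SE is the absolute log2 fold change divided by the square root of the F statistic. The steps were tested on simulated data. Values in all libraries are given for the 12 most abundant hosts and those called with compound 1, and the others by calls and ranges, except for SNHG17 and SNHG19, chosen after their values were seen. List examples are the extremes of at least 5 CPM, and some items are not reported here. Host genes, lists and tests were chosen with earlier results of these data known. Alternatives for scaling were library size alone and edgeR's RLE size factors. The others were filters, DESeq2 1.42.0, all 9 libraries in one fit, a replicate block, thresholds and leaving out each library. Removal of length and GC trends was a further alternative, chosen after seeing the data.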

Additional observations from a re-analysis of the deposited data

How the results depend on the processing

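Of the counts and medians, 118 values under alternatives stayed close to those reported and 20 moved. Requiring also a 2-fold change left 4 of 22 hosts lower and 0 higher with SCH772984 against DMSO (10.6% and 18.2% of all genes), 6 of 23 lower and 0 higher against compound 1 (10.1% and 16.5%), and 0 higher with compound 1 (0.0467%). Library size alone moved the hosts' median to -0.21 with SCH772984 and to -0.50 in the direct comparison. Compound 1 raised 1 host as reported (0.49% of all genes), and 3 with library size alone (0.662%), 4 without a filter (0.73%), 2 with all 9 libraries in one fit (0.755%), 4 with DESeq2 (0.911%), 7 after removal of the length and GC trends (1.95%, chosen after seeing the data) and 13 at an unadjusted p under 0.05 (7.35%). Each of these also called a larger share of all genes higher than the reported fit did. Removal of the trends left 1 of 23 hosts higher in the direct comparison (33.6% of all genes), SNHG14 losing its call. With each library left out in turn, the hosts' median was -0.53 to -0.33 with SCH772984 and the count raised by compound 1 was 0 to 6. It was 0 without DMSO replicate 1, DMSO replicate 2 or compound 1 replicate 3 (0.038% to 0.114% of all genes) and 6 without compound 1 replicate 1 (3.46%). The cause was not tested.

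Among single hosts, 8 values reversed, all of them not called. With library size alone these were SNHG5 (0.088) and SNHG6 (0.031) with SCH772984 and SNHG16 (0.00017) with compound 1. SNHG14 with compound 1 gave -0.0034 without a filter. With each library left out in turn, compound 1 against DMSO ran from -0.089 to 0.043 for SNHG16 and from -0.067 to 0.042 for SNHG14.

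A fit with the replicate number as a block raised the hosts called higher with compound 1 to 4 (1.5% of all genes). The numbers did not pair the libraries, since correlations of deviations from the group means were -0.08 to 0.11 between same-numbered libraries and -0.10 to 0.15 between others, and not every library correlated best with its own number. The rarest of the tested hosts, SNHG21 and SNHG25, were near 1 CPM, where few counts limit the precision.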

Other observations

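RefSeq now gives SNHG names to 4 further genes of the table that the rule on names did not reach, found after the data were seen. LINC02001 (SNHG30) fell with SCH772984 by 1.59 on the log2 scale (SE 0.17, adjusted p = 1.67e-11) and C6orf48 (SNHG32) fell by 0.52 (SE 0.09, adjusted p = 1.54e-06). LRRC75A-AS1 (SNHG29) was at -0.04 (SE 0.06, adjusted p = 0.581) and LINC00888 (SNHG33) at 0.29 (SE 0.17, adjusted p = 0.12). With compound 1 edgeR called 0 of the 4, also at an unadjusted p under 0.05, and their log2 fold changes were -0.14 to 0.15. Over all genes 0.374% were called lower and 0.49% higher with compound 1 (7.69% and 7.35% unadjusted).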
